A study of Danio rerio with 19 samples.

Results

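The injury response of the tail fin was compared between *yap1* and *wwtr1* Crispants, by taking the change upon injury in the first and subtracting the change upon injury in the second. The members are the 13 Crispant libraries among the 19 bulk RNAseq libraries of the series, chosen by their labels. They are 4 injured and 3 uninjured *yap1* Crispant libraries, and 3 injured and 3 uninjured *wwtr1* Crispant libraries. Earlier results of these data were known when they were chosen. Crispants are F0 zebrafish injected with Cas9 and guide RNAs, so every animal is a mosaic of cells with different mutations. All 4 groups were WIK strain and 4 days post-fertilisation (dpf), and each library was made from tail tissue of pooled embryos, cut at the start of the pigment gap. The injured groups had a severe tail fin injury, which removes fin fold and part of the notochord, at 3 dpf and were collected 24 h later, and the uninjured groups were left intact. The other 6 libraries, from injured and uninjured WT fish, entered the fit for its estimate of the spread and take no part in the difference. The question is whether loss of either of these related proteins alters which genes respond to the injury, or by how much. Total counts of the Crispant libraries ran from 28081131 to 68187208, with 15.7% to 20.8% of the total in the top 10 genes of an injured library and 28.1% to 32.4% in those of an uninjured library.

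Yap1 and Taz, the product of *wwtr1*, are transcriptional co-activators at the end of the Hippo pathway. When the kinases Lats1 and Lats2 are active, they phosphorylate both proteins and hold them in the cytoplasm. When the kinases are quiet, Yap1 and Taz enter the nucleus, bind TEAD factors and switch on genes such as *ctgfa* and *cyr61*. In the zebrafish tail a wound is closed by epidermis, neutrophils and then macrophages arrive, and a blastema of dividing mesenchymal cells rebuilds the fin.

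The targeted genes were read first, as CPM, counts scaled to a common normalized library size. *yap1* (ENSDARG00000068401) had 136, 260, 193 and 182 CPM in injured *yap1* Crispants and 276, 167 and 174 CPM in uninjured *yap1* Crispants. In *wwtr1* Crispants it had 268, 251 and 268 CPM injured and 193, 300 and 318 CPM uninjured. Its transcript is therefore present in the libraries labelled *yap1* Crispant, at levels that overlapped those of the *wwtr1* Crispants without injury. *wwtr1* (ENSDARG00000067719) was scarce, with 2.65, 1.52, 0.973 and 4.47 CPM in injured and 2.57, 7.46 and 2.66 CPM in uninjured *yap1* Crispants. The *wwtr1* Crispants had 1.01, 0.444 and 1.24 CPM injured and 0.629, 0.817 and 1.19 CPM uninjured, so its uninjured libraries all lay below those of the *yap1* Crispants (log2 fold change 2.27, adjusted p = 0.091 in edgeR). An edit need not lower the level of an RNA, so these values are no measure of how much of either gene was edited.

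Injury changed the level of many genes in each Crispant. Of 20979 genes tested, 1146 rose (5.46%) and 932 fell (4.44%) upon injury in *yap1* Crispants, where a gene was called if its adjusted p was under 0.05 and its log2 fold change lay beyond 1 in either direction. In *wwtr1* Crispants 1314 genes rose (6.26%) and 994 fell (4.74%). The 810 genes raised in both were 70.7% of those raised in *yap1* Crispants and 61.6% of those raised in *wwtr1* Crispants, and the 646 lowered in both were 69.3% of those lowered in *yap1* and 65.0% of those lowered in *wwtr1* Crispants. Without injured *yap1* replicate 4, 960 genes rose (4.58%) and 850 fell (4.05%) in *yap1* Crispants, with 726 raised and 629 lowered in both. The sum of raised and lowered genes was then 1810 in *yap1* and 2558 in *wwtr1* Crispants, and the genes raised in both were 75.6% of those raised in *yap1* and 51.4% of those raised in *wwtr1* Crispants. Without uninjured *yap1* replicate 2 that sum was 1360 in *yap1* and 2264 in *wwtr1* Crispants, against 2078 in *yap1* and 2308 in *wwtr1* Crispants with all libraries.

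The genes with the smallest adjusted p for injury in either Crispant that were called in both were 12 in number, of which 8 fell and 4 rose. *and2* and *and3* encode actinodins, the structural proteins of the fibres that stiffen the fin fold. *and2* had 4986, 6382, 5477 and 5331 CPM in injured and 36576, 28873 and 34877 CPM in uninjured *yap1* Crispants. In *wwtr1* Crispants it had 6248, 4759 and 5382 CPM injured and 23019, 41816 and 41981 CPM uninjured. The injured libraries of both genotypes lay together, far below the uninjured ones, with log2 fold changes of -2.59 for *yap1* and -2.70 for *wwtr1* Crispants, a difference of 0.11 (95% interval -0.53 to 0.75). *and3* fell by 2.06 in *yap1* and by 2.21 in *wwtr1* Crispants, a difference of 0.15 (-0.36 to 0.65).

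*HPD*, an enzyme of tyrosine breakdown, fell by 4.57 in *yap1* and by 4.65 in *wwtr1* Crispants on the log2 scale, a difference of 0.08 (95% interval -0.97 to 1.14). *PDLIM3*, a PDZ and LIM domain protein that binds alpha-actinin, rose to between 15.4 and 24.2 CPM in injured *yap1* Crispants, against 0.978, 0.612 and 0.819 CPM uninjured. It rose to 26.8, 19.4 and 25.8 CPM in injured *wwtr1* Crispants, against 1.06, 1.14 and 1.93 CPM uninjured, and its difference was 0.45 (-0.32 to 1.22). *cmpk*, a pyrimidine nucleoside monophosphate kinase, rose by 1.78 in *yap1* and by 2.06 in *wwtr1* Crispants, a difference of -0.29 (-0.79 to 0.22). The 12 genes also include *zgc:136930*, *angptl2b*, *CHST2*, *TMEFF2*, *si:cabz01074946.1* and *si:dkey-283b15.2*. The interval of the difference lay between -1 and 1 for 5 of them and between -2 and 2 for 11.

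**Figure D1:**
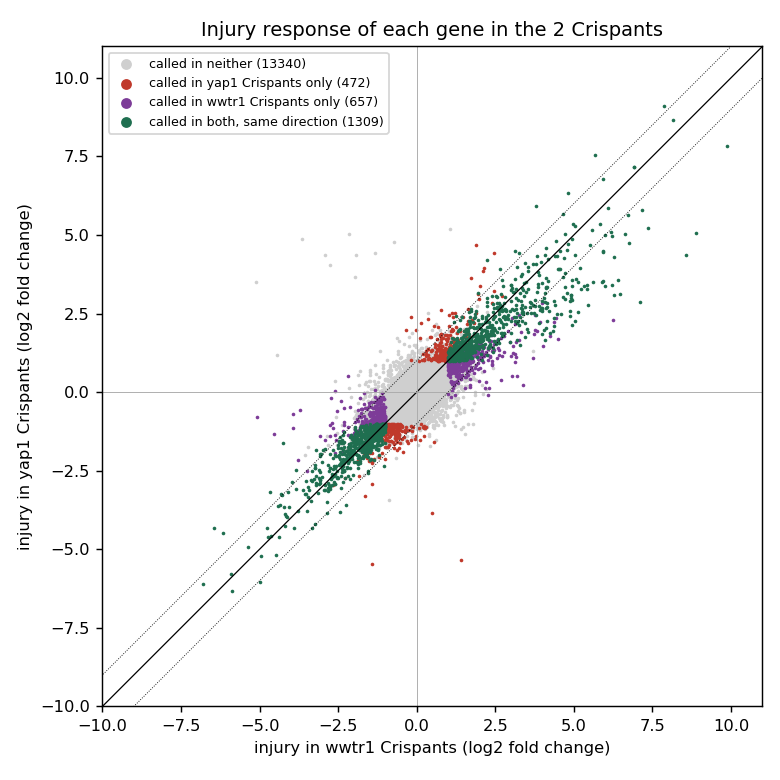
Each point is a gene with at least 1 CPM on average over the 13 Crispant libraries (15778 genes), with its log2 fold change upon injury in *yap1* Crispants on the y axis and in *wwtr1* Crispants on the x axis. The solid line marks equal responses and the dotted lines a difference of 1 in either direction, and the 1309 genes called in both Crispants lie along the solid line, below it for many of the raised genes.

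Over the 15778 genes with at least 1 CPM on average, the 2 responses correlated with a Pearson's r of 0.846 and a Spearman's rho of 0.801. The correlation is across genes, which are not independent replicates, and both responses come from the same fit and scaling, but they share no library. The SD of the difference over these genes was 0.52 on the log2 scale. Of the 336 genes raised in *yap1* Crispants that did not pass in *wwtr1* Crispants, 328 had a positive fold change there, and 28 had an unadjusted p under 0.05 for the difference. Of the 504 genes raised in *wwtr1* Crispants that did not pass in *yap1* Crispants, 496 had a positive fold change there, and 75 had an unadjusted p under 0.05 for the difference. Of the genes lowered in *yap1* Crispants that did not pass in *wwtr1* Crispants, 266 of 286 were also below 0 there, and 335 of 348 in the opposite case. Of these 286 and 348 genes, 37 and 50 had an unadjusted p under 0.05 for the difference, against 2.53% of all genes tested. The libraries that enter the difference also chose the genes that passed in only 1 Crispant. Their counts of small p for the difference are therefore a description and no test. Only *crp2* was called in opposite directions, and no gene was once injured *yap1* replicate 4 was left out. Genes raised in both had a median log2 fold change of 1.88 in *yap1* and 2.19 in *wwtr1* Crispants, and 557 of the 810 (68.8%) rose more in *wwtr1* Crispants. Genes lowered in both had medians of -1.62 and -1.72 in *yap1* and *wwtr1* Crispants, and 387 of the 646 (59.9%) fell more in *wwtr1* Crispants.

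No gene passed the test for a difference in injury response. Of 20979 genes tested 0 were called (0%), the smallest adjusted p was 0.99997, and 530 genes had an unadjusted p under 0.05, which is fewer than 1 in 20 of the genes. Of these, 214 (1.02%) had a higher response in *yap1* Crispants and 316 (1.51%) a lower one. Without injured *yap1* replicate 4, 0 of 20966 genes were called, with a smallest adjusted p of 0.557, and 681 had an unadjusted p under 0.05, of which 242 (1.15%) were higher and 439 (2.09%) lower. The 388 genes with an unadjusted p under 0.05 both with and without that library all had the same sign. Both fits share all other libraries, so this agreement is a description and no test. DESeq2 called 1 gene, *crp2* (adjusted p = 0.0137), with 837 genes at an unadjusted p under 0.05. Without injured *yap1* replicate 4 DESeq2 called 2, *crp2* (adjusted p = 0.0117) and *selplg* (adjusted p = 0.00120). limma with voom and quality weights called 0 with all libraries, where 1166 genes had an unadjusted p under 0.05, and 0 without that library. A count of 0 in edgeR's test does not show that the responses are alike. The median standard error (SE) of the difference was 0.51, and its 95% interval reached 1.07 to either side of the estimate for the median gene. The interval lay between -1 and 1 for 6530 genes (31.1%) and between -2 and 2 for 13909 (66.3%).

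The 10 genes with the smallest unadjusted p and a higher response in *yap1* Crispants had p-values from 0.000184 to 0.00353, and none passed. They were scarce, since 7 of the 10 averaged under 1 CPM, and for 6 of the 10 the larger part of the difference lay between the uninjured groups. The uninjured libraries helped to choose these genes, so that split is a description and no test. *RBP2* (ENSDARG00000093774), a cellular retinol-binding protein known from the mammalian intestine, had 10, 8, 2 and 6 counts in injured and 0, 0 and 1 counts in uninjured *yap1* Crispants. The *wwtr1* Crispants had no count in any injured library and 29, 11 and 7 counts uninjured, so the fitted difference rests on groups at or near 0 counts and is not given. *zgc:77938* had 7, 8, 5 and 9 counts in injured and 10, 16 and 7 in uninjured *yap1* Crispants, against no count in injured and 5, 8 and 15 counts in uninjured *wwtr1* Crispants.

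*L3MBTL2*, a chromatin protein of the Polycomb group, was the most abundant of these genes. It had 17.6, 17.4, 19.2 and 20.9 CPM in injured and 17, 12.7 and 15.7 CPM in uninjured *yap1* Crispants, against 16.9, 14.7 and 18.7 CPM injured and 23.6, 25.5 and 22 CPM uninjured in *wwtr1* Crispants. All injured libraries overlapped, and the uninjured *wwtr1* libraries stood above all others. The difference was 0.81 (SE 0.23). *fbxo36b*, an F-box gene, had 1.59, 0.887, 1.18 and 1.93 CPM in injured and 0.383, 0.375 and 0.41 CPM in uninjured *yap1* Crispants, against 0.594, 0.556 and 0.879 CPM injured and 0.951, 1.26 and 1.04 CPM uninjured in *wwtr1* Crispants. Its injured *yap1* libraries lay above the injured *wwtr1* libraries and its uninjured ones below, and the difference was 2.51 (SE 0.65). *CYB561*, a cytochrome that carries electrons across vesicle membranes, had 1.02, 0.676, 0.973 and 0.579 CPM in injured and 0.192, 0.118 and 0.0293 CPM in uninjured *yap1* Crispants. In *wwtr1* Crispants its levels overlapped between 0.327, 0.6 and 0.783 CPM injured and 0.564, 0.446 and 0.669 CPM uninjured. The other 5 were *HYKK*, *ZSWIM2*, *si:ch211-161m3.4*, *RGS7* and *NEXMIF*, with differences of 3.48, 2.84, 2.31, 4.11 and 2.68. *HYKK* had 0, 2 and 3 counts in injured *wwtr1* and *RGS7* 2, 4 and 3 counts in uninjured *yap1* Crispants. The size of these differences therefore rests on groups near 0 counts.

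**Figure D2:**
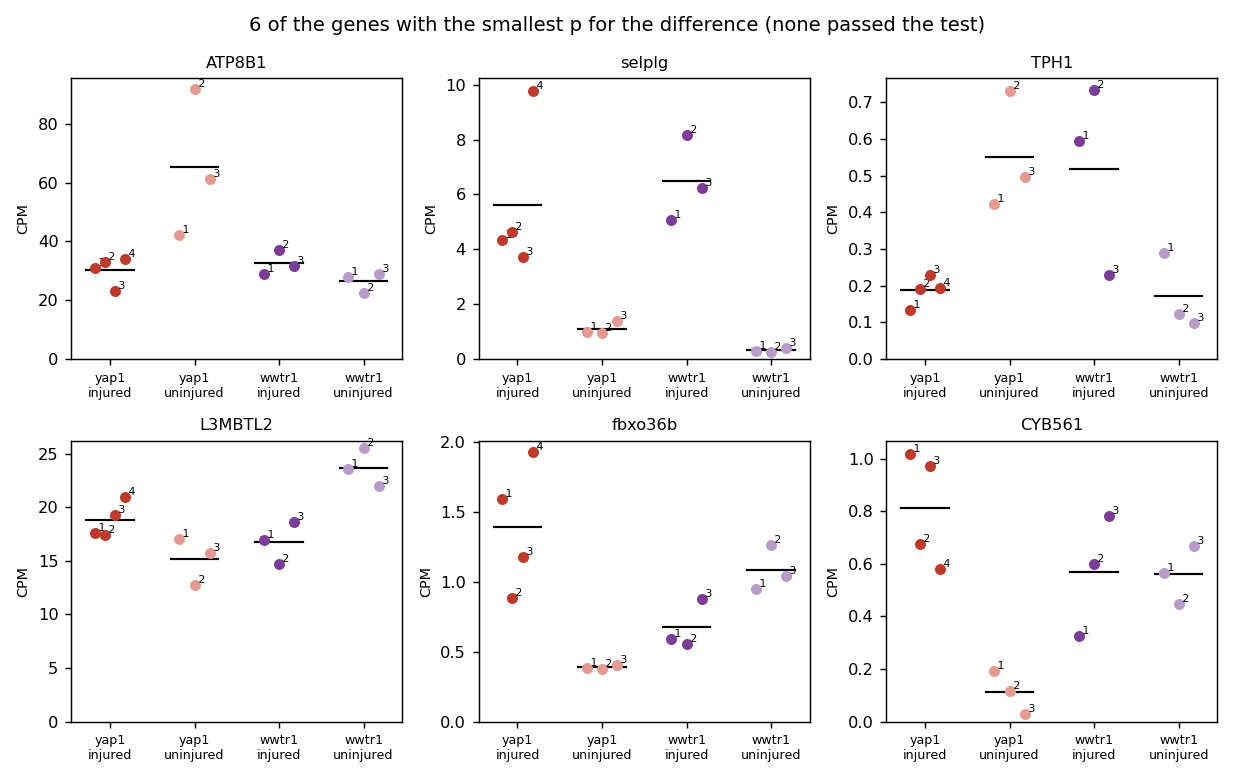
CPM of 6 of the 20 genes with the smallest unadjusted p for the difference, chosen after their values were seen, with a point and replicate number for each library and a line at each group's mean. *ATP8B1* is highest in the 3 uninjured *yap1* libraries (42.3 to 91.9 CPM), while *L3MBTL2* is highest in the 3 uninjured *wwtr1* libraries (22 to 25.5 CPM).

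The 10 genes with the smallest unadjusted p and a lower response in *yap1* Crispants had p-values from 6.45e-05 to 0.00197, and none passed. For 9 of the 10 the larger part of the difference lay between the uninjured groups, and 6 of them were called higher in uninjured *yap1* than in uninjured *wwtr1* Crispants. The same uninjured libraries helped to choose these genes, so the split and the 6 calls are a description and no test. *crp2* (ENSDARG00000056462), of the C-reactive protein family of acute phase proteins, had 1, 4, 2 and 0 counts in injured and 42, 17 and 5 counts in uninjured *yap1* Crispants. In *wwtr1* Crispants it had 7, 3 and 28 counts injured and no count in any uninjured library. Counts thus fell upon injury in *yap1* Crispants and were found in *wwtr1* Crispants after injury alone, at a depth where 3 counts are worth between 0.0367 and 0.0966 CPM. *nlrp12l* had 1.13, 1.08, 0.384 and 1.45 CPM in injured and 0.115, 0.296 and 0.527 CPM in uninjured *yap1* Crispants, against 2.23, 1.16 and 1.6 CPM injured and 0.0161, 0 and 0 CPM uninjured in *wwtr1* Crispants.

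*ATP8B1*, a flippase that moves phospholipids between the leaflets of the membrane, had 30.8, 33, 23.1 and 34 CPM in injured and 42.3, 91.9 and 61.2 CPM in uninjured *yap1* Crispants. The *wwtr1* Crispants had 28.8, 37.2 and 31.7 CPM injured and 27.8, 22.6 and 29 CPM uninjured. The uninjured *yap1* libraries stood above all others, and the other 3 groups overlapped or touched. Injury lowered it in *yap1* Crispants by 1.11 on the log2 scale (adjusted p = 0.00203), while the change of 0.30 in *wwtr1* Crispants did not pass, and the difference was -1.41 (SE 0.32). *selplg*, the P-selectin ligand on which leukocytes roll along vessel walls, had 4.32, 4.65, 3.71 and 9.75 CPM in injured and 0.978, 0.948 and 1.38 CPM in uninjured *yap1* Crispants, against 5.08, 8.18 and 6.23 CPM injured and 0.29, 0.248 and 0.397 CPM uninjured in *wwtr1* Crispants. It rose in both, by 2.35 and by 4.38, and the difference was -2.03 (SE 0.51) with injured *yap1* replicate 4 and -2.43 without it.

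*pik3c2g*, a class II phosphoinositide 3-kinase, had 4.48, 5.07, 2.97 and 4.89 CPM in injured and 5.27, 19 and 8.28 CPM in uninjured *yap1* Crispants, against 1.28, 4.38 and 1.95 CPM injured and 0.887, 0.471 and 1.24 CPM uninjured in *wwtr1* Crispants. *ADPGK*, a glucokinase that uses ADP, had 6.42, 4.27, 2.92 and 2.57 CPM in injured and 2.61, 4.09 and 6.17 CPM in uninjured *yap1* Crispants, against 2.02, 1.87 and 1.62 CPM injured and 0.516, 0.297 and 0.322 CPM uninjured in *wwtr1* Crispants. *yap1* libraries were above *wwtr1* libraries of the same state for *ADPGK* in each case, and for *pik3c2g* without injury. *TPH1*, which carries out the first step of serotonin synthesis, had 0.135, 0.19, 0.23 and 0.193 CPM in injured and 0.422, 0.731 and 0.497 CPM in uninjured *yap1* Crispants, against 0.594, 0.733 and 0.229 CPM injured and 0.29, 0.124 and 0.0991 CPM uninjured in *wwtr1* Crispants. The differences of these 3 genes were -2.87, -2.33 and -3.11, and those of the other 3, *si:ch211-205j18.1*, *si:ch211-226h7.8* and ENSDARG00000117510, were -2.17, -2.43 and -4.62. ENSDARG00000117510 had 1, 1, 3 and 0 counts in injured *yap1* Crispants, so its value rests on a group near 0.

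The difference in response can be split by state, since it equals the gap between the injured groups minus the gap between the uninjured groups. Between uninjured *yap1* and uninjured *wwtr1* Crispants 174 genes were higher (0.829%) and 1 was lower (0.00477%). Between the injured groups edgeR called 0 genes (0%), with 1158 at an unadjusted p under 0.05. DESeq2 called 171 of 28239 genes, 165 higher and 6 lower in *yap1* Crispants. Without injured *yap1* replicate 3 edgeR called 34, all of them higher. Of the 530 genes with an unadjusted p under 0.05 for the difference, 348 had the larger part of it in the uninjured gap, and 43 had a group with no count. Both gaps entered the choice of these genes, so this split is likewise a description. The 174 genes were chosen on the uninjured libraries, which also enter the difference, so the lower response of *yap1* Crispants among them (median -0.93) is a description and no test. The injured libraries entered this choice through the shared filter, scaling and estimate of the spread. Without injured *yap1* replicate 4, 231 genes were called higher between the uninjured groups. In the injured libraries the median log2 fold change of the 174 between *yap1* and *wwtr1* Crispants was 1.48 with all libraries. It was 1.17 without injured *yap1* replicate 4, against -0.003 over all genes, and 170 of the 174 were above 0. The genes are not independent of each other, so these values too are a description and no test. The call of these genes depended on single libraries. The sum of higher and lower calls was 175 with all libraries, 1 without uninjured *wwtr1* replicate 1, 0 without uninjured *wwtr1* replicate 2, 60 without uninjured *wwtr1* replicate 3, 39 without uninjured *yap1* replicate 2 and 114 without uninjured *yap1* replicate 3.

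*JUN*, a subunit of the AP-1 transcription factor, shows this pattern at high levels. It had 89.6, 48.9, 22.5 and 67.9 CPM in injured and 77.6, 126 and 60.6 CPM in uninjured *yap1* Crispants, against 30.7, 31.3 and 14 CPM injured and 7.43, 7.93 and 11.5 CPM uninjured in *wwtr1* Crispants. It was already high in *yap1* Crispants without injury (log2 fold change 3.30 against uninjured *wwtr1* Crispants, adjusted p = 0.00940), and the response of *yap1* Crispants was lower by -2.13 (SE 0.70, unadjusted p = 0.00677). *SOCS3* (ENSDARG00000026611), a feedback inhibitor of Jak/Stat signalling, had 342, 333, 266 and 396 CPM in injured and 17.6, 49.4 and 101 CPM in uninjured *yap1* Crispants, against 146, 181 and 110 CPM injured and 6.22, 7.06 and 14.4 CPM uninjured in *wwtr1* Crispants. *yap1* Crispants were above *wwtr1* Crispants in either state, without overlap. *SOCS3* rose upon injury by 2.58 in *yap1* Crispants (adjusted p = 0.00193) and by 3.98 in *wwtr1* Crispants (adjusted p = 0.000122), and the difference was -1.40 (SE 0.67, unadjusted p = 0.0528), or -0.66 without uninjured *yap1* replicate 3.

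**Figure D3:**
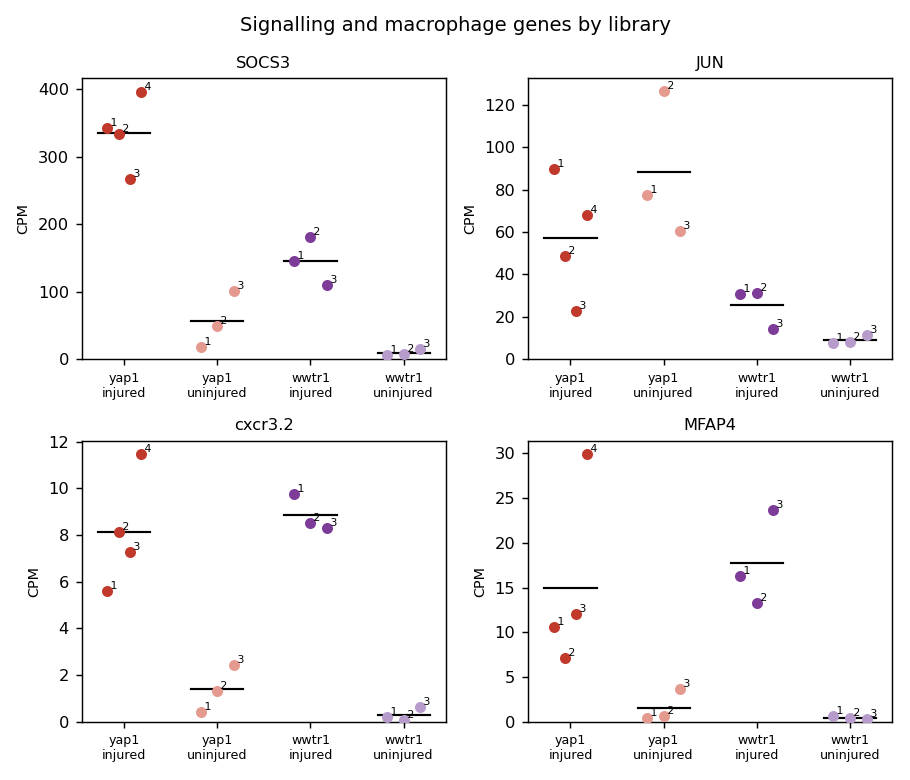
CPM of *SOCS3*, *JUN*, *cxcr3.2* and *MFAP4* (ENSDARG00000088745) in each Crispant library, with the replicate number beside the point and a line at each group's mean. The uninjured *yap1* libraries lie above the uninjured *wwtr1* libraries for *SOCS3* (17.6 to 101 against 6.22 to 14.4 CPM) and for *JUN*, while the injured libraries of both genotypes overlap for *cxcr3.2* and *MFAP4*.

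The gene lists were read next, as counts of members that passed and as medians, beside the same over all genes tested. Some list symbols matched only in a shortened form or by a synonym, so lists can hold paralogues of the named genes. Over all 20979 genes the injury response had a median of 0.01 (log2) in *yap1* and -0.001 in *wwtr1* Crispants, and the median difference was 0.007. Of all genes tested, 5.46% rose and 4.44% fell in *yap1* Crispants, and 6.26% rose and 4.74% fell in *wwtr1* Crispants. The difference was below 0 for 10324 of them. A list count near these shares says nothing particular about the list. Of the genes in the 31 lists, 0 passed the test for the difference. In the Hippo pathway list, 0 of 21 genes rose and 1 fell in *yap1* Crispants, 0 rose and 2 fell in *wwtr1* Crispants, and the median difference was -0.08. The interval of the difference lay between -2 and 2 for 20 of the 21 genes. Of its members, *TEAD3*, one of the DNA-binding partners of Yap1 and Taz, had 16, 16.9, 17.9 and 9.46 CPM in injured and 28.6, 25.1 and 20.3 CPM in uninjured *yap1* Crispants. In *wwtr1* Crispants it had 15.9, 21.6 and 19 CPM injured and 14.9, 14.9 and 15.5 CPM uninjured, so that the uninjured *yap1* libraries were the highest but for 1 injured *wwtr1* library, and the difference was -1.03 (SE 0.43, unadjusted p = 0.0295). *vgll4l*, a TEAD cofactor of the Vestigial-like family, and *WWC1*, the Kibra scaffold upstream of the Lats kinases, had differences of -0.46 (SE 0.24) and 0.70 (SE 0.38).

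The 9 genes targeted in the screen had differences between -0.86 and 0.14, and the smallest unadjusted p among them was 0.284. These were -0.05 for *yap1* (95% interval -0.85 to 0.75) and -0.86 for *wwtr1* (-2.50 to 0.78). *lats1* and *lats2* had differences of 0.05 (SE 0.55) and -0.15 (-0.89 to 0.58). *nf2a* and *nf2b*, which encode the upstream activator Merlin, had -0.08 (-0.81 to 0.65) and -0.03 (-0.68 to 0.62). The connective tissue growth factor genes *ctgfa* and *ctgfb* had 0.14 (-0.78 to 1.06) and 0.12 (-0.93 to 1.18). *cyr61*, another matricellular target of Yap1 and Taz, had 73.9, 21.5, 13.3 and 92.5 CPM in injured and 56.6, 97.6 and 68.3 CPM in uninjured *yap1* Crispants, against 24.2, 19.4 and 6.53 CPM injured and 12.7, 13.6 and 17.1 CPM uninjured in *wwtr1* Crispants. Its uninjured *yap1* libraries were all above the uninjured *wwtr1* libraries (log2 fold change 2.36, adjusted p = 0.083), and the difference in response was -0.77 (-2.41 to 0.88).

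In the list of Yap/Taz targets 2 of 15 genes rose and 2 fell in *yap1* Crispants, 3 rose and 2 fell in *wwtr1* Crispants, and the median difference was 0.02. *ANKRD1* (ENSDARG00000076192), a muscle ankyrin repeat protein and a classical target of Yap1, rose to 16.6, 18.3, 9.67 and 65 CPM in injured *yap1* Crispants, against 5.21, 2.43 and 2.6 CPM uninjured. It rose to 13.2, 17.2 and 14.9 CPM in injured *wwtr1* Crispants, against 2.93, 3.52 and 3.07 CPM uninjured. Injured *yap1* replicate 4 stood apart from the other injured libraries, and the difference of 0.74 (SE 0.66) was -0.14 without it. The second gene with this symbol (ENSDARG00000075263) had 0.637, 0.613, 0.921 and 0.547 CPM in injured and 0.498, 0.592 and 0.41 CPM in uninjured *yap1* Crispants, against 1.81, 1.36 and 0.745 CPM injured and 0.242, 0.272 and 0.545 CPM uninjured in *wwtr1* Crispants. It rose in *wwtr1* Crispants (adjusted p = 0.0225), and the difference was -1.45 (SE 0.72, unadjusted p = 0.0597).

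**Figure D4:**
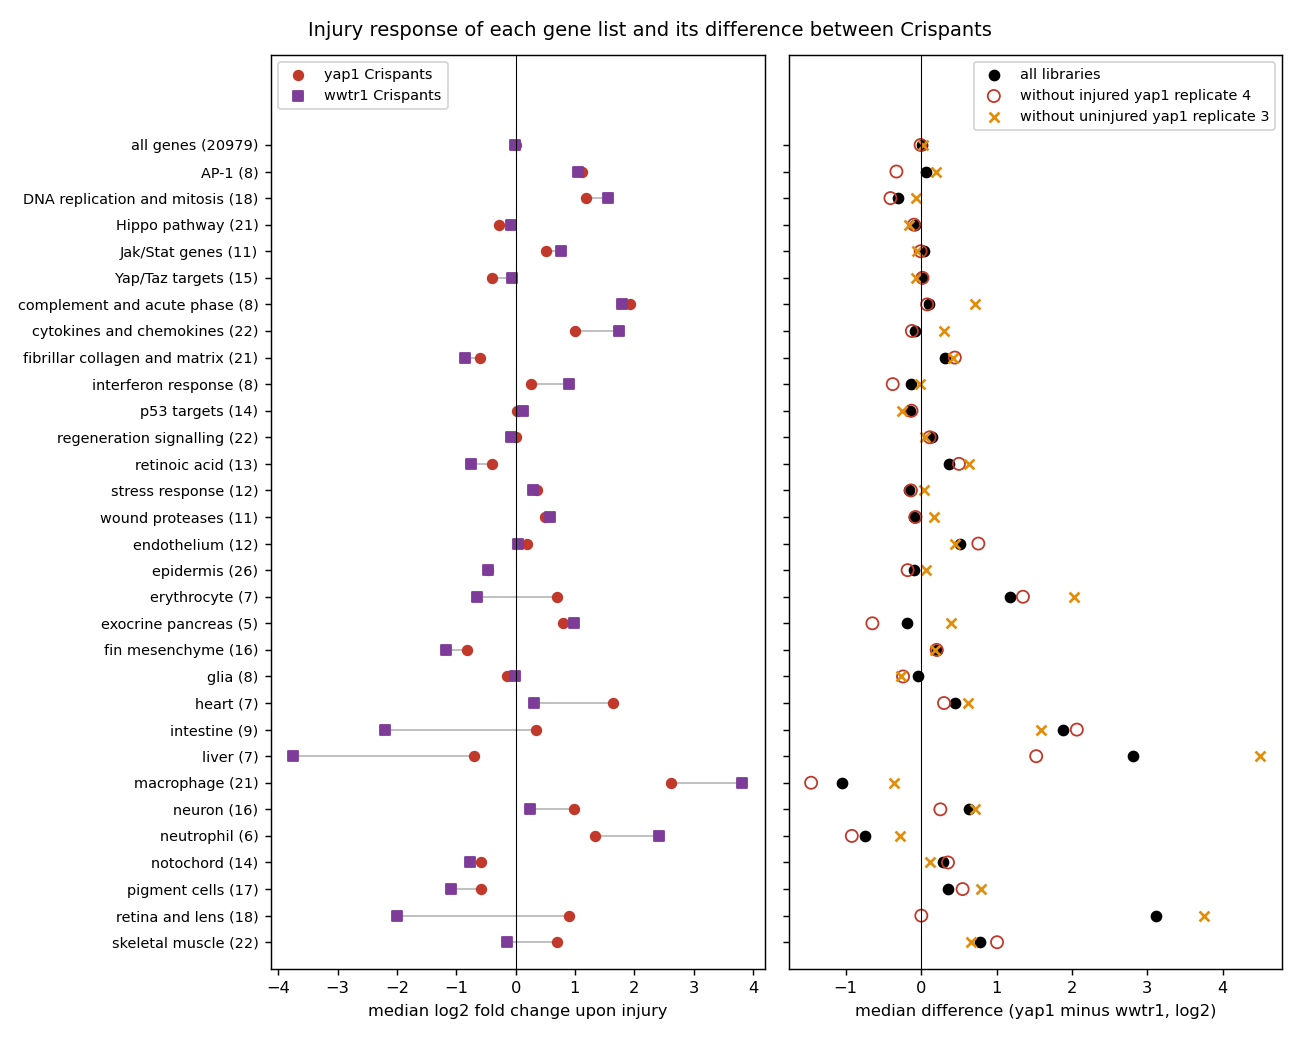
Median log2 fold change upon injury of each gene list with at least 5 genes tested, in *yap1* Crispants (circles) and *wwtr1* Crispants (squares) on the left, and the median difference with all libraries, without injured *yap1* replicate 4 and without uninjured *yap1* replicate 3 on the right. The number of genes tested stands in brackets, and over these 3 readings the 14 pathway lists have median differences between -0.41 and 0.72, the macrophage list between -1.46 and -0.36 and the retina and lens list between 0.002 and 3.75.

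Macrophage markers were the list with the most raised members. Of 21 markers tested, 13 rose in *yap1* and 16 in *wwtr1* Crispants, none fell in either, and all 13 rose in both. The median log2 fold change was 2.62 in *yap1* and 3.82 in *wwtr1* Crispants, and the median difference was -1.05. Of the 21 differences 19 were below 0, against 10324 of 20979 over all genes, though 1 marker had an unadjusted p under 0.05. Other lists leaned to the opposite side. The difference was above 0 for 19 of 22 skeletal muscle, 16 of 18 retina and lens and 14 of 16 neuron markers. In bulk tissue, fewer cells of a type and less RNA per cell cannot be told apart. The summed level of the 24 macrophage markers with any count was 214, 247, 212 and 502 CPM in injured and 16.7, 26.4 and 74.7 CPM in uninjured *yap1* Crispants, against 220, 253 and 300 CPM injured and 17.8, 14.6 and 24.1 CPM uninjured in *wwtr1* Crispants. The injured groups overlapped, with a median log2 fold change between them of 0.11, and the uninjured groups were set apart by uninjured *yap1* replicate 3, with a median of 1.34 between them. The median difference was -1.46 without injured *yap1* replicate 4, -0.36 without uninjured *yap1* replicate 3, and -0.57 without both. Without uninjured *yap1* replicate 3 the median response of *yap1* Crispants was 4.02 and 16 of its markers rose. Over all libraries left out in turn the median difference ran from -1.68, without uninjured *wwtr1* replicate 3, to -0.36.

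*cxcr3.2*, a chemokine receptor that guides zebrafish macrophages, had 5.59, 8.13, 7.27 and 11.5 CPM in injured and 0.422, 1.3 and 2.43 CPM in uninjured *yap1* Crispants. The *wwtr1* Crispants had 9.77, 8.53 and 8.29 CPM injured and 0.193, 0.0743 and 0.644 CPM uninjured. It rose in both, by 2.57 and by 4.88, and the difference was -2.32 (SE 0.74, unadjusted p = 0.00567), and between -3.39 and -1.65 with each library left out in turn. *MFAP4* (ENSDARG00000088745), whose zebrafish promoter marks macrophages, had 10.6, 7.1, 12 and 29.9 CPM in injured and 0.422, 0.592 and 3.72 CPM in uninjured *yap1* Crispants, against 16.3, 13.2 and 23.7 CPM injured and 0.645, 0.396 and 0.347 CPM uninjured in *wwtr1* Crispants. Several genes share this symbol and the reads of such copies may be split between them. *havcr1*, a phosphatidylserine receptor, rose by 3.57 in *yap1* and by 4.94 in *wwtr1* Crispants, a difference of -1.37 (SE 0.68), or -0.50 without uninjured *yap1* replicate 3.

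Neutrophil markers had a median difference in the same direction, with fewer genes. The difference was below 0 for 4 of the 6 markers tested and above 0 for 2. Of 6 tested, 3 rose in each Crispant, 2 of them in both, with medians of 1.34 in *yap1* and 2.42 in *wwtr1* Crispants and a median difference of -0.74. The summed level of 8 markers was 623, 570, 667 and 1919 CPM in injured and 189, 469 and 962 CPM in uninjured *yap1* Crispants, against 703, 575 and 777 CPM injured and 368, 244 and 297 CPM uninjured in *wwtr1* Crispants. Over the Crispant libraries *lyz*, *NCF1* and *CSF3R* had at most 4.62, 7.45 and 0.578 CPM, so other members carried the sum in every library. In injured *yap1* replicate 4 they had 1.19, 3.35 and 0.515 CPM. *lyz* and *NCF1* lay there within the range of the other injured *yap1* libraries, and *CSF3R* above it. The symbols *mpx*, *lect2l* and *cpa5* of the list matched no gene. In the sum, injured *yap1* replicate 4 and uninjured *yap1* replicate 3 were the highest of their groups, as for macrophage markers. The median difference was -0.92 without the first and -0.28 without the second, and the part of these libraries in it was not otherwise tested. *lyz*, lysozyme, had 0.784, 2.49, 2.15 and 1.19 CPM in injured and 0.288, 0.395 and 0.585 CPM in uninjured *yap1* Crispants, against 4.19, 4.62 and 1.57 CPM injured and 0.29, 0.0991 and 0.223 CPM uninjured in *wwtr1* Crispants. It rose in both, and the difference was -2.07 (SE 0.75, unadjusted p = 0.0129). *NCF1*, a subunit of the phagocyte NADPH oxidase, rose in *wwtr1* Crispants by 2.77 (adjusted p = 0.00298), its change of 1.28 in *yap1* Crispants did not pass, and the difference was -1.49 (SE 0.75).

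**Figure D5:**
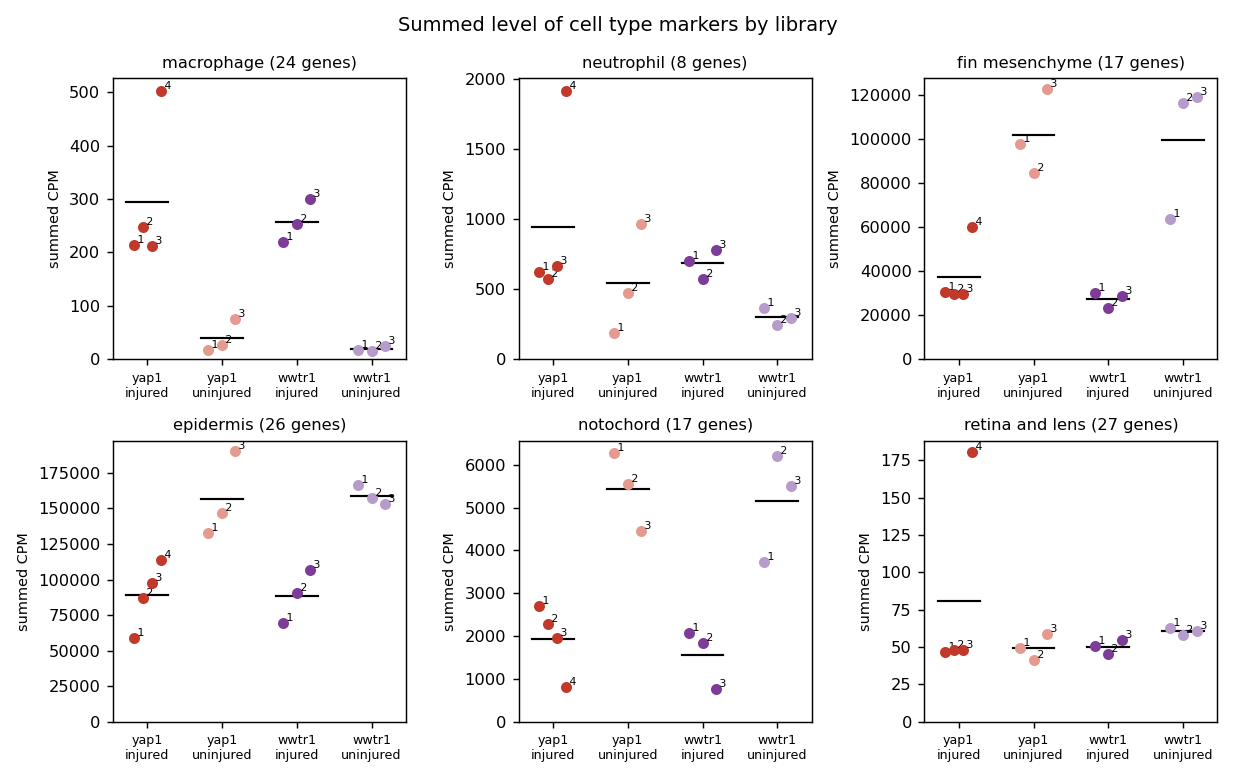
Summed CPM of the markers of 6 cell types in each Crispant library, with the replicate number beside each point and a line at each group's mean. Injured *yap1* replicate 4 is the highest of its group for macrophage (502 CPM), neutrophil (1919 CPM), fin mesenchyme and retina and lens markers, and uninjured *yap1* replicate 3 is the highest of its group for macrophage (74.7 CPM) and neutrophil (962 CPM) markers.

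Some inflammatory signals passed in each Crispant. Of 22 cytokines and chemokines, 7 rose in each Crispant, 6 of them in both, 1 fell in *yap1* and 2 fell in *wwtr1* Crispants, with medians of 0.99 and 1.74 in *yap1* and *wwtr1* Crispants. The median difference was -0.08, with 11 genes on either side of 0. *il1b*, the inflammatory cytokine interleukin 1 beta, had 1.21, 0.908, 1.18 and 3.57 CPM in injured and 0.594, 2.47 and 3.45 CPM in uninjured *yap1* Crispants, against 5.5, 2.96 and 2.02 CPM injured and 1.55, 1.02 and 0.347 CPM uninjured in *wwtr1* Crispants. Its change did not pass in either, and the difference was -2.17 (SE 0.89, unadjusted p = 0.0245), and -2.80 without injured *yap1* replicate 4. *csf3b*, a granulocyte colony-stimulating factor, had 0.747, 0.317, 0.589 and 5.12 CPM in injured and 0.211, 1.3 and 3.74 CPM in uninjured *yap1* Crispants, against 1.19, 1.27 and 1.24 CPM injured and 0.29, 0.545 and 0.0248 CPM uninjured in *wwtr1* Crispants. Its difference was -2.15 (SE 1.38) with all libraries, -3.74 without injured *yap1* replicate 4 and -0.95 without uninjured *yap1* replicate 3. For the chemokine *ccl38.6*, which rose in *wwtr1* Crispants by 4.68 (adjusted p = 0.00256), the difference was -2.31 with all libraries and -3.35 without injured *yap1* replicate 4.

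Of 11 Jak/Stat genes, 4 rose in each Crispant, 3 of them in both, 1 fell in *yap1* Crispants, and the median difference was 0.03, or -0.72 without uninjured *wwtr1* replicate 1. *jak2a*, a Janus kinase, had 12.2, 13.5, 9.37 and 9.27 CPM in injured and 13.1, 9.73 and 14.5 CPM in uninjured *yap1* Crispants, against 10.7, 14.5 and 14.3 CPM injured and 6.06, 6.29 and 6.37 CPM uninjured in *wwtr1* Crispants. It rose in *wwtr1* Crispants by 1.08 (adjusted p = 0.0201), where the uninjured libraries were the lowest of all, and the difference was -1.24 (SE 0.41, unadjusted p = 0.00686). Of 8 complement and acute phase genes, 3 rose in *yap1* and 4 in *wwtr1* Crispants, 1 fell in each, and the median difference was 0.10. *c7a* and *c6.2*, of the terminal complement pathway, rose by 3.38 and 2.37 in *yap1* Crispants and by 2.74 and 1.82 in *wwtr1* Crispants, with differences of 0.64 (SE 0.51) and 0.55 (SE 0.62), or 0.20 and 0.17 without uninjured *yap1* replicate 2. *hamp*, the iron hormone hepcidin, had 34, 28, 21 and 40 counts in injured and 0, 6 and 12 counts in uninjured *yap1* Crispants, against 23, 38 and 128 counts injured and no count in any uninjured library in *wwtr1* Crispants.

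Of 8 interferon response genes, 1 rose in each Crispant, and the median difference was -0.14. *IFIH1*, a sensor of double-stranded RNA, had a difference of -0.54 (SE 0.48). Of 8 AP-1 genes, 2 rose in both Crispants, and the median difference was 0.06, or -0.33 without injured *yap1* replicate 4 and -0.76 without uninjured *wwtr1* replicate 1. *JUNB* had 260, 226, 209 and 197 CPM in injured and 17.1, 73.1 and 117 CPM in uninjured *yap1* Crispants, against 291, 251 and 272 CPM injured and 87.4, 42.7 and 41 CPM uninjured in *wwtr1* Crispants, so that it rose in both by 1.69 and by 2.25. Of 11 wound protease genes, 2 rose in *yap1* and 4 in *wwtr1* Crispants, 2 fell in each, and the median difference was -0.10. *mmp13a*, a collagenase, had 11, 13.4, 11.7 and 55.3 CPM in injured and 1.65, 10.4 and 36.4 CPM in uninjured *yap1* Crispants, against 14.2, 20.7 and 15.9 CPM injured and 2.48, 2.75 and 0.917 CPM uninjured in *wwtr1* Crispants. It rose in *wwtr1* Crispants by 3.04 (adjusted p = 0.0155), the change of 0.50 in *yap1* Crispants did not pass, and the difference was -2.54 (SE 1.04, unadjusted p = 0.0247), or -3.46 without injured *yap1* replicate 4 and -1.12 without uninjured *yap1* replicate 3. *TIMP2*, an inhibitor of such proteases, rose by 2.39 in *yap1* and by 2.87 in *wwtr1* Crispants, a difference of -0.48 (SE 0.42), or -0.13 without uninjured *yap1* replicate 3.

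Genes of growth and patterning signals in the blastema passed in small numbers. Of 22 regeneration signalling genes, 3 rose and 4 fell in *yap1* Crispants, 2 rose and 4 fell in *wwtr1* Crispants, and the median difference was 0.14. *FGF20* (ENSDARG00000007356), of a growth factor family whose zebrafish member *fgf20a* is needed for the adult fin blastema, rose to 12.8, 14.3, 18 and 8.79 CPM in injured *yap1* Crispants, against 0.307, 3.57 and 3.57 CPM uninjured. It rose to 19.4, 16.1 and 14.4 CPM in injured *wwtr1* Crispants, against 1.23, 0.793 and 1.54 CPM uninjured, and the difference was -1.36 (SE 0.70, unadjusted p = 0.0675). *FGF10* had 1.03, 0.782, 0.742 and 1.16 CPM in injured and 3.43, 4.24 and 2.87 CPM in uninjured *yap1* Crispants, against 0.624, 1.04 and 0.497 CPM injured and 0.532, 1.07 and 1.36 CPM uninjured in *wwtr1* Crispants. Its uninjured *yap1* libraries stood above all others, it fell in *yap1* Crispants by 1.92 (adjusted p = 0.00618), and the difference was -1.48 (SE 0.66, unadjusted p = 0.0367). Of 13 retinoic acid genes, 1 rose in each Crispant, 3 fell in *yap1* and 4 in *wwtr1* Crispants, and the median difference was 0.37. *CYP26C1*, which degrades retinoic acid, fell by 1.12 in *yap1* and by 1.95 in *wwtr1* Crispants, a difference of 0.83 (SE 0.54), or 0.30 without uninjured *wwtr1* replicate 1.

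Of 21 genes of fibrillar collagen and matrix, 2 rose and 5 fell in *yap1* Crispants, 1 rose and 6 fell in *wwtr1* Crispants, and the median difference was 0.31. Of 18 DNA replication and mitosis genes, 9 rose in *yap1* and 12 in *wwtr1* Crispants, 8 in both, with medians of 1.18 and 1.55. The difference was below 0 for 16 of the 18, against 10324 of 20979 over all genes. Such a one-sided count was not particular to this list, since 19 of 22 skeletal muscle markers were above 0. The median difference of the DNA replication and mitosis genes was -0.31. Without injured *yap1* replicate 4 this median was -0.41, without uninjured *yap1* replicate 3 it was -0.07, and over all libraries left out it ran from -0.74 to 0.08. *MCM7*, a subunit of the replicative helicase, had 38.9, 18.5, 7.58 and 62.5 CPM in injured and 17.5, 27.9 and 27.3 CPM in uninjured *yap1* Crispants, against 9.98, 14.2 and 5.5 CPM injured and 1.13, 3.2 and 3.69 CPM uninjured in *wwtr1* Crispants. It was higher in uninjured *yap1* than in uninjured *wwtr1* Crispants by 3.19 (adjusted p = 0.0474), and the difference in response was -1.50 (SE 0.93). *AURKB*, the mitotic kinase Aurora B, rose in *wwtr1* Crispants by 2.09 (adjusted p = 0.0340), its change of 1.11 in *yap1* Crispants did not pass, and the difference was -0.98 (SE 0.85), with -2.10 without uninjured *wwtr1* replicate 3 and -0.23 without uninjured *yap1* replicate 3. Of 14 p53 targets 0 rose and 1 fell in *yap1* Crispants, 1 rose and 1 fell in *wwtr1* Crispants, and of 12 stress response genes 2 rose and 1 fell in each, with median differences of -0.15 and -0.16.

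Some markers of tail tissue fell upon injury in both genotypes. Of 16 fin mesenchyme markers 6 fell in *yap1* and 8 in *wwtr1* Crispants, with medians of -0.83 and -1.18 and a median difference of 0.21. *hoxd13a*, of the distal fin, did not pass, with changes of 0.40 and 0.78 in *yap1* and *wwtr1* Crispants and a difference of -0.37 (SE 0.21). *PDGFRA*, a receptor of platelet-derived growth factors, fell in *wwtr1* Crispants by 1.64 (adjusted p = 0.0307), its change of -0.85 in *yap1* Crispants did not pass, and the difference was 0.79 (SE 0.67), or 0.0017 without injured *yap1* replicate 1. Of 26 epidermis markers 10 fell and 1 rose in *yap1* Crispants, 7 fell and 1 rose in *wwtr1* Crispants, and the median difference was -0.09, with the interval of the difference between -2 and 2 for 25 of them. *krt17*, a keratin, fell in *yap1* Crispants by 1.21 (adjusted p = 0.0349), its change of -0.55 in *wwtr1* Crispants did not pass, and the difference was -0.66 (SE 0.55). *cldni*, a claudin of tight junctions, had between 2455 and 3393 CPM in injured and between 3506 and 4776 CPM in uninjured *yap1* Crispants, and between 2967 and 3881 CPM injured and between 3820 and 4008 CPM uninjured in *wwtr1* Crispants. The difference was -0.28 (95% interval -0.78 to 0.22).

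Of 14 notochord markers 1 rose and 4 fell in *yap1* Crispants, 0 rose and 5 fell in *wwtr1* Crispants, and the median difference was 0.29. *epyc*, a proteoglycan of the notochord sheath and cartilage, had 98.1, 118, 89.4 and 156 CPM in injured and 365, 271 and 244 CPM in uninjured *yap1* Crispants, against 71.2, 105 and 40.4 CPM injured and 244, 305 and 240 CPM uninjured in *wwtr1* Crispants. It fell in both without overlap, by 1.35 and by 1.87, and the difference was 0.52 (SE 0.44). Of 22 skeletal muscle markers 0 passed in either Crispant, and the median difference was 0.78, with the interval between -2 and 2 for 2 of them. *ACTA1* (ENSDARG00000055618), skeletal actin, had 17.2, 16.3, 6.32 and 6.57 CPM in injured and 4.62, 3.63 and 1.43 CPM in uninjured *yap1* Crispants, against 13, 22.3 and 3.71 CPM injured and 3.5, 8.69 and 13.6 CPM uninjured in *wwtr1* Crispants. Of 17 pigment cell markers 1 rose and 1 fell in *yap1* Crispants and 1 rose in *wwtr1* Crispants, and the median difference was 0.36, or -0.49 without injured *yap1* replicate 1. Of 12 endothelium markers 3 rose and 1 fell in *yap1* Crispants, 1 rose and 1 fell in *wwtr1* Crispants, and the median difference was 0.51. *MRC1*, a mannose receptor of scavenger endothelium and macrophages, rose in *yap1* Crispants by 2.51 (adjusted p = 0.00581), its change of 1.12 in *wwtr1* Crispants did not pass, and the difference was 1.39 (SE 0.77, unadjusted p = 0.0899).

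Many markers of tissues that the cut should leave behind were scarce or at 0, and the medians of their lists moved with single libraries. The 18 retina and lens markers tested had a median difference of 3.11 with all libraries, 0.002 without injured *yap1* replicate 4 and 0.17 without uninjured *wwtr1* replicate 1. Summed, they reached 181 CPM in injured *yap1* replicate 4 and lay between 46.9 and 48.4 CPM in the other injured *yap1* libraries, against between 41.1 and 58.6 CPM in uninjured *yap1* Crispants. The sum was between 45.5 and 54.7 CPM in injured and between 58 and 62.8 CPM in uninjured *wwtr1* Crispants. In injured *wwtr1* Crispants 14 of 27 markers were at 0 in all libraries, so the sum there came from the other markers of the list. *MIP*, a water channel of the lens, had 0.049, 0, 0.0256 and 1.19 CPM in injured *yap1* Crispants and was at 0 in all injured *wwtr1* libraries. *GNAT2*, the transducin of cone cells, had 4.24 CPM in uninjured *wwtr1* replicate 1 and at most 0.805 CPM in each other Crispant library. The 7 erythrocyte markers had a median difference of 1.18, or -0.90 without uninjured *wwtr1* replicate 1, and the 7 liver markers 2.81, or 1.53 without injured *yap1* replicate 4.

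Few genes stand behind the counts of the remaining lists. Over all genes tested 4.44% fell in *yap1* and 4.74% in *wwtr1* Crispants. Of 9 intestine markers 0 fell in *yap1* and 3 in *wwtr1* Crispants, and the median difference was 1.88. *apoa4b.1*, an apolipoprotein of the intestine, had 0.269, 0.254, 0.307 and 0.193 CPM in injured and 0.153, 0.079 and 1.23 CPM in uninjured *yap1* Crispants, against 0.0594, 0.289 and 0.0191 CPM injured and 1.58, 3.74 and 2.6 CPM uninjured in *wwtr1* Crispants. It fell in *wwtr1* Crispants, where uninjured libraries stood above all others, and the difference was 3.52 (SE 1.45, unadjusted p = 0.0260). Of 7 liver markers 1 fell in *yap1* and 4 in *wwtr1* Crispants. In *wwtr1* Crispants the lowered share of the intestine and liver lists was thus above that over all genes. Of 16 neuron markers 3 rose in *yap1* and 2 in *wwtr1* Crispants, of 8 glia markers 2 and 1, and their median differences were 0.63 and -0.04. Of 7 heart markers 1 rose in *wwtr1* Crispants and of 5 exocrine pancreas markers 1 rose in *wwtr1* Crispants, with 0 in *yap1* Crispants in either list and median differences of 0.45 and -0.19. Neither of the 2 yolk and ovary markers tested, *buc* and *zp3b*, passed in either Crispant, and their median difference was -4.41. They had 62 and 64 counts in uninjured *yap1* replicate 1 and at most 23 and 36 in any other Crispant library. With each library left out this median ran from -4.95 to -2.42. With each library left out in turn, the median difference changed sign for the Hippo pathway (-0.18 to 0.06), Yap/Taz targets (-0.18 to 0.26), cytokines and chemokines (-0.30 to 0.30), complement and acute phase (-0.11 to 0.72), interferon response (-0.41 to 0.21), wound proteases (-0.52 to 0.17), regeneration signalling (-0.06 to 0.36), stress response (-0.20 to 0.04), epidermis (-0.21 to 0.06), fin mesenchyme (-0.09 to 0.47), glia (-0.37 to 0.29), heart (-0.11 to 0.95) and exocrine pancreas (-0.76 to 1.098). It also changed sign for AP-1 (-0.76 to 0.20), DNA replication and mitosis (-0.74 to 0.08), Jak/Stat genes (-0.72 to 0.04), erythrocyte (-0.90 to 2.03) and pigment cells (-0.49 to 0.80). The part of these markers in the differences of other genes was not tested.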

How the data were processed

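Tail tissue RNA was measured in 19 bulk libraries, of which the 13 Crispant libraries carry the comparison. The authors trimmed reads with Trim Galore, aligned them to GRCz11 with BWA-MEM and counted them per gene with HTSeq, and the deposited table holds these raw counts for 32520 Ensembl genes, of which 4251 had no count. The tool versions, the strand setting and whether WT fish were injected are not given in the sources used here. Without a strand setting, overlapping and antisense genes cannot be told apart, and reads of near-identical copies may be split. Symbols are printed as the reference table gives them, which pairs 29201 of the IDs, and paralogues can share one.

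Counts were filtered with filterByExpr, scaled by TMM and fitted in edgeR 4.0.16 (R 4.3.3, quasi-likelihood, robust) over all 19 libraries in 6 groups, with a prior count of 0.125. The injury response difference is the injury log2 fold change in *yap1* minus that in *wwtr1* Crispants. A gene was called at a Benjamini-Hochberg adjusted p under 0.05, over all genes tested, and a log2 value over 1 or under -1. The intervals cover 95%, and 3 counts set the floor. The labels name the replicates biological, and each pools embryos. The script was tested on simulated data. Of 439 symbols in the gene lists, 421 matched, 319 of them exactly, and 401 genes were tested. The other matches came after a number or the paralogue letter was dropped, or through a synonym. Such a match takes every gene with that symbol, so lists can hold paralogues of the named marker. The members and lists were chosen with earlier results of these data known. Named genes were the 9 genes of the screen, the 10 with the smallest p for the difference in each direction, up to 3 per list by p, and the 10 with the smallest adjusted p for injury in each Crispant that were called in both. Some genes that this rule names are not reported here. Alternatives were DESeq2 1.42.0, limma 3.58.1 with voom, RLE size factors, other count filters, fewer libraries, a replicate block and each library left out. Counting floors cover counting error only.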

Additional observations from a re-analysis of the deposited data

Results flagged for a closer look

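In the 4 injured *yap1* libraries, 15 of the 98 values examined had a library far from the other 3, and 13 of the 15 had injured *yap1* replicate 4 as that library. Chance flags about 1 in 20 groups, and the values share libraries, so they are not independent. Replicate 4 had the highest summed CPM of markers of fin mesenchyme (59992, against 29325 to 30315 in the other 3), glia (164), macrophages (502, against 212 to 247), neutrophils (1919, against 570 to 667), and retina and lens (181, against 46.9 to 48.4). Not every member shared these sums. Most of the glia sum was 1 gene, *FABP7* ENSDARG00000007697, with 132 CPM in replicate 4 against 16.3 to 26.3 CPM in the other 3. Of the fin mesenchyme markers, *and2* (5331 CPM), *hoxd13a* (14.1) and *twist2* (1.16) lay within the range of the other 3. *PDGFRA* (12.7) was the lowest and *and3* (509) the highest. Of the neutrophil markers, *lyz* (1.19) and *NCF1* (3.35) lay within that range. Replicate 4 also had the highest CPM of *lats1* (49.7), *selplg* (9.75), *ANKRD1* ENSDARG00000076192 (65.0), *il1b* (3.57), *csf3b* (5.12), *mmp13a* (55.3), *CYP26C1* (43.6) and *MIP* (1.19). Replicate 1 had the highest summed CPM of pigment cell markers (483, against 125 to 154) and the highest CPM of *NEXMIF* (2.99).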

How the results depend on the processing

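Of 125 alternative counts of called genes, 105 were within 1.5 times the reported count. For the injury response difference edgeR called 0 genes under every alternative run with it, and 0 with each Crispant library left out (467 to 712 genes at an unadjusted p under 0.05), while DESeq2 called 1, or 2 without injured *yap1* replicate 4. With the adjusted p alone, injury changed 3483 genes in *yap1* and 3505 in *wwtr1* Crispants. Between injured *yap1* and injured *wwtr1* Crispants DESeq2 called 171 genes, and 47 without injured *yap1* replicate 4, and edgeR called 29 in the 13 Crispant libraries alone and 29 in the other 12. Between the uninjured Crispants DESeq2 called 435 and limma with voom 427, against 493 and 402 without injured *yap1* replicate 4, and edgeR called 320 in the 12 other Crispant libraries. With each library left out, calls ranged from 1360 to 2316 for injury in *yap1* Crispants, from 1764 to 2558 for injury in *wwtr1* Crispants, from 0 to 34 between the injured and from 0 to 233 between the uninjured Crispants. The causes were not tested.

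Same-numbered libraries deviated together in 5 of 18 pairs (r over 0.1), with r from -0.24 to 0.20, so the numbers were not taken to pair the samples. With the replicate block, edgeR called 0 genes for the difference (727 at an unadjusted p under 0.05), 1866 and 2640 for injury in *yap1* and *wwtr1* Crispants, 0 between the injured and 199 between the uninjured Crispants.

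Of the 80 named genes, 13 changed the sign of the difference under some alternative, none of them among the 20 with the smallest p. Those 20 were chosen by the p of this same difference, and the alternatives reuse its libraries. Their unchanged sign is therefore a description and no test. With limma and voom, without and with injured *yap1* replicate 4 left out, the difference was 0.32 and 0.38 for *yap1*, -0.12 and -0.18 for *ctgfb*, -0.68 and -0.75 for *lats1*, and 0.034 and 0.067 for *lats2*, and with all libraries it was -0.0063 for *angptl2b*. With the replicate block it was -0.51 for *lats1*, 0.11 for *nf2b* and -0.13 for *ANKRD1* ENSDARG00000076192. With DESeq2 without injured *yap1* replicate 4 it was -0.52, 0.14 and -0.13 for these genes, in the 12 other Crispant libraries -0.53, 0.12 and -0.14, and without injured *yap1* replicate 4 and uninjured *yap1* replicate 3, an alternative chosen after seeing the data, -0.74, 0.16 and -0.29, with 0.11 for *JUNB*. With each library left out the difference ranged from -0.23 to 0.22 for *yap1*, -0.15 to 0.41 for *ctgfa*, -0.30 to 0.44 for *ctgfb*, -0.53 to 0.28 for *lats1*, -0.42 to 0.087 for *lats2*, -0.43 to 0.12 for *nf2a*, -0.26 to 0.13 for *nf2b*, -0.14 to 1.19 for *ANKRD1* ENSDARG00000076192, -1.02 to 0.056 for *JUNB*, -0.19 to 0.21 for *angptl2b*, -0.024 to 0.35 for *and2*, -0.37 to 0.40 for *HPD* and -0.88 to 1.07 for *si:dkey-283b15.2*.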
